A study of Homo sapiens with 3 samples.

Results

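A set of 10 genes best known from hepatocytes was followed in glucagon-producing cells made from human pluripotent stem cells. The genes are AFP (alpha-fetoprotein), ALB (albumin), the apolipoproteins APOA1, APOA2, APOB, APOC3, APOM and APOH, AGT (angiotensinogen) and VTN (vitronectin). The 10 genes were found by symbol among the 33538 features of the deposited tables, and each matched 1 feature. The genes were chosen by their measured UMI levels, and for moving together, in glucagon cells of these same libraries. Their presence and their joint variation there are a description and not a test. The series holds 3 replicate libraries of 1 group, SC-A: alpha cells differentiated from HUES8, with no genetic change, drug arm or second condition in the labels. HUES8 is a widely used line of human embryonic stem cells. Nothing in the labels says that the 3 replicates came from separate differentiations. With the library as block, p-values measure only how a difference between cell sets varied over these libraries. That variation may be technical.

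The libraries held 2850, 2576 and 4257 barcodes and 30139788, 31122791 and 30980799 unique molecular identifiers (UMIs, each standing for 1 captured transcript) in replicates 1, 2 and 3. Barcodes were kept if they had 1000 genes or more and no more than 20% of UMIs from mitochondrial genes, which left 1160, 1027 and 1466 cells with median depths of 15267, 20721 and 9992 UMIs. Glucagon cells were the kept cells in which GCG, the glucagon gene, took at least 5% of UMIs, and there were 854, 860 and 914 of them, 2628 of 3653 in all. They were set beside 33, 17 and 105 cells with at least 3 UMIs of TPH1 (tryptophan hydroxylase 1, the serotonin-synthesising enzyme of enterochromaffin cells) and 5, 6 and 12 cells with at least 2 ALB UMIs, all with GCG under 5%. By these UMI cuts alone, 3, 3 and 2 glucagon cells also passed the TPH1 cut and 5, 4 and 3 also passed the ALB cut. In replicate 3, 2 cells were in both the TPH1 and the ALB set. Library pairs shared 1, 4 and 2 barcodes. All 11 alpha cell markers were at 10 CPM (UMIs per 1000000 UMIs of the cells summed) or more in the glucagon cells of each library. INS, the insulin gene, was present too, at 2155, 2691 and 443 CPM, as was SST, somatostatin, at 1401, 2410 and 1270 CPM. Of 14 hepatic markers, which include ALB, APOH and VTN of the 10 genes, 6, 5 and 5 were at 10 CPM or more in glucagon cells. The 14 summed to 78633, 76833 and 77775 CPM, most of it TTR (transthyretin). Among them HP (haptoglobin), AHSG (fetuin-A), TF (transferrin) and FGA (fibrinogen alpha chain) did not exceed 0.1, 0.2, 0.53 and 0.37 CPM in any library.

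Hepatocytes secrete most plasma proteins, and the fetal liver and yolk sac make AFP before albumin replaces it. APOB is the structural protein of chylomicrons and very low density lipoproteins. APOA1 and APOA2 build high density lipoprotein, APOC3 slows the clearance of triglyceride-rich particles and APOM carries sphingosine-1-phosphate. APOH (beta-2-glycoprotein I) binds phospholipids, AGT is the precursor of angiotensin, and VTN is an adhesive protein that stabilises the plasminogen activator inhibitor PAI-1. APOA1 and APOC3 lie in the same apolipoprotein gene cluster, and ALB and AFP are neighbours. Liver, yolk sac, gut and pancreas all derive from endoderm and share regulators such as HNF4A and FOXA factors.

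The bases upstream of the starts are printed as a description. They cannot show what the genes that varied together most share, because APOA1 and APOC3, the most strongly correlated pair, had no matched sequence. RefSeq promoter sequence (GRCh38.p14) was matched for 7 of the 10 genes, all but APOA1, APOB and APOC3. The 250 bases before the start are printed for 4 of them, 5′ to 3′ on the gene's strand, for the neighbouring genes AFP and ALB, for APOH, which varied apart from the others, and for VTN, which was higher in TPH1 cells. Capitals mark matches, on either strand, to 5 kinds of motif: the HNF1 core motif GTTAAT, the HNF4 motifs CAAAGTCCA and TGNACTTTG, the FOXA motif TGTTTAC, the C/EBP motif TTGCNCAA and the TATA box TATAAA.
AFP, chr4:73435971-73436220, plus strand: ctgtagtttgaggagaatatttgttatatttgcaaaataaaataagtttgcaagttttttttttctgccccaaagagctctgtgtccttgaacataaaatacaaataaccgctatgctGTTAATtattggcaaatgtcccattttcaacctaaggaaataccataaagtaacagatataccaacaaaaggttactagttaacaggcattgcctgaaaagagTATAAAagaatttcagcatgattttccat
ALB, chr4:73404037-73404286, plus strand: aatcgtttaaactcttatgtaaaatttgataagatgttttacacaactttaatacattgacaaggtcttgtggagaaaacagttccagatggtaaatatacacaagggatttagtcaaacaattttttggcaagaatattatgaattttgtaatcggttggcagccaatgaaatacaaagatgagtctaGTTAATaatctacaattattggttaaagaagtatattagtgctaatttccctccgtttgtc
APOH, chr17:66229416-66229665, minus strand: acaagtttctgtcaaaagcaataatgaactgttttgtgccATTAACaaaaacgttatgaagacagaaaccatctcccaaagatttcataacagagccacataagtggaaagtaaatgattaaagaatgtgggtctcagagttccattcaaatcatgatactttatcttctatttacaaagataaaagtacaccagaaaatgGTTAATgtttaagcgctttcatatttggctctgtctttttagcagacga
VTN, chr17:28370308-28370557, minus strand: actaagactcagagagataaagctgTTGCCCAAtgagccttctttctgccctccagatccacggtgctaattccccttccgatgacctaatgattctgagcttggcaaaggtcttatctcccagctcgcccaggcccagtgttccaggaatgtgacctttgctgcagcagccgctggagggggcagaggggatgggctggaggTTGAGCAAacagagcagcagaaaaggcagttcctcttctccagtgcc

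The HNF1 motif was found in 3 of the 7 promoters (AFP, ALB and APOH), against 6.88% of the 35116 promoters of the table, each searched over 300 bases that include the 50 after the start. AFP and AGT held the TATA box (11.5% of all promoters), VTN held the C/EBP motif at 2 places (2.61% of all promoters) and APOA2 held the FOXA motif (3.42%). APOM held none of them, and neither HNF4 motif was found in the 7. A match describes the letters and not a bound site. In the GENCODE 29 annotation of GRCh38, ALB spans chr4:73397114-73421412 and AFP chr4:73431138-73456174, both protein coding and on the plus strand, with 9725 bases between them. The bases printed above lie inside the GENCODE spans of their genes, so the RefSeq starts used there differ from the GENCODE starts. AFP and ALB, which share the HNF1 motif and the neighbourhood, differed in level as described next.

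AFP was expressed unevenly between libraries and ALB was close to absent from glucagon cells. AFP stood at 163, 201 and 23.5 CPM in glucagon cells of replicates 1, 2 and 3 and at 17.8, 8.63 and 5.83 CPM in TPH1 cells. The AFP values in TPH1 cells rest on 7, 2 and 5 UMIs. The lowest glucagon library lay above the highest TPH1 library, but replicate 3 lay far below the other two. ALB stood at 31.1, 1.32 and 2.88 CPM in glucagon cells and at 2.54, 0 and 75.8 CPM in TPH1 cells, and these ranges overlapped. Of the 65 ALB UMIs in the TPH1 cells of replicate 3, 62 lay in the 2 cells that were also ALB cells. In replicate 1, a single cell held 441 of the 477 ALB UMIs of glucagon cells; it had 52317 UMIs, GCG at 8.93% of them and 172 AFP UMIs, and it was not called as a doublet. Without that cell, ALB in replicate 1 was 2.36 CPM.

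The lipoprotein genes were led by APOC3. APOC3 stood at 363, 417 and 223 CPM in glucagon cells and at 114, 60.4 and 105 CPM in TPH1 cells. APOA1 stood at 183, 207 and 80.4 CPM in glucagon cells and at 155, 38.9 and 92.1 CPM in TPH1 cells. The APOC3 ranges were apart and the APOA1 ranges overlapped, with replicate 3 lower in glucagon cells. APOB, the scaffold of the secreted particle, stood at 83.7, 65.4 and 50.2 CPM in glucagon cells and at 40.6, 4.32 and 29.2 CPM in TPH1 cells. The HDL protein APOA2 was low, at 17.7, 10.1 and 6.35 CPM in glucagon cells and 5.08, 0 and 3.5 CPM in TPH1 cells. These TPH1 values rest on 2, 0 and 3 UMIs. A count of 3 there stands for 7.62, 13.0 and 3.5 CPM, so the APOA2 ranges were not apart beyond counting error. APOM was low as well, at 14.2, 15.3 and 2.88 CPM in glucagon cells and 5.08, 4.32 and 2.33 CPM in TPH1 cells, with overlapping ranges. Its TPH1 values rest on 2, 1 and 2 UMIs.

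APOH and AGT were the steadiest of the 10 across libraries, and VTN was the one gene that stood higher in TPH1 cells in each library. APOH stood at 162, 160 and 193 CPM in glucagon cells and at 48.2, 25.9 and 45.5 CPM in TPH1 cells. AGT stood at 218, 171 and 226 CPM in glucagon cells and at 66.0, 0 and 36.2 CPM in TPH1 cells. Both genes had ranges apart, and for both the highest glucagon library was replicate 3, which was the lowest for 7 of the other 8. VTN stood at 246, 181 and 57.1 CPM in glucagon cells and at 543, 324 and 314 CPM in TPH1 cells, so its ranges were apart in the other direction.

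**Figure D1:**
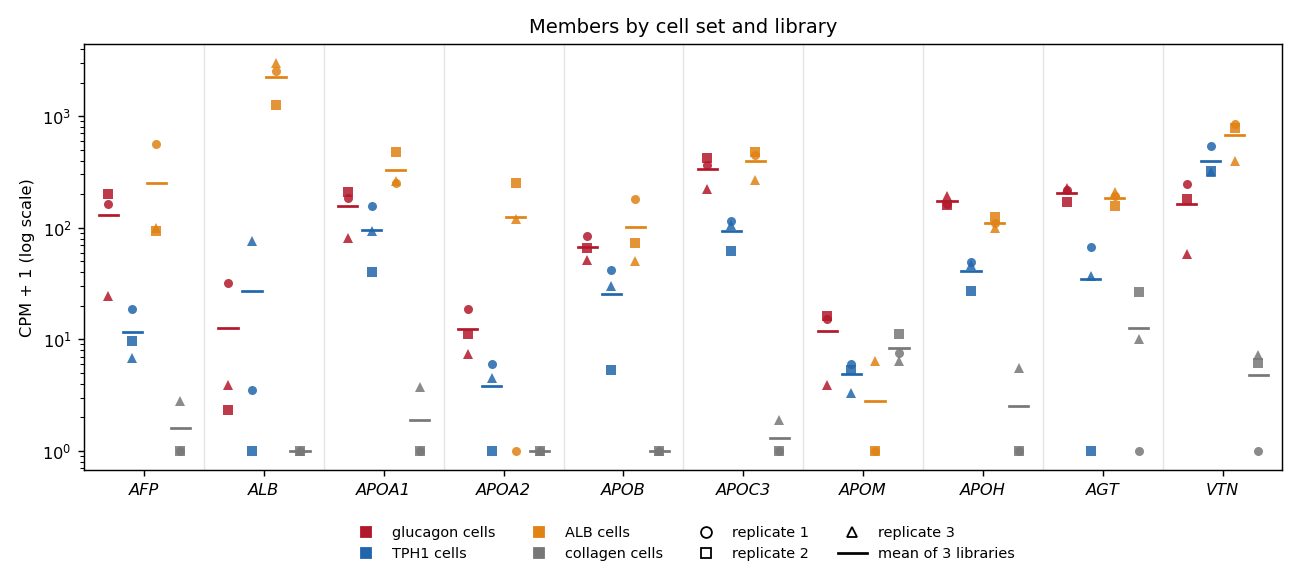
CPM plus 1 (log scale) of each of the 10 genes in glucagon, TPH1, ALB and collagen cells; each point is 1 library and each bar the mean of 3. AFP, APOA2, APOB, APOC3, APOH and AGT lie higher in every library of glucagon cells than in any library of TPH1 cells. For APOA2 this rests on 2, 0 and 3 UMIs in TPH1 cells and is within counting error. VTN lies the other way round, and collagen cells have the lowest mean for every gene but APOM.

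Because 3′ libraries count 1 tag per transcript, CPM can be set side by side between genes without a correction for length. The order of mean CPM in glucagon cells was APOC3 (335 ± 100, SD, n = 3 libraries throughout), AGT (205 ± 29.9), APOH (171 ± 18.7), VTN (161 ± 95.9), APOA1 (157 ± 67.4), AFP (129 ± 93.6), APOB (66.4 ± 16.8), ALB (11.8 ± 16.8), APOA2 (11.4 ± 5.78) and APOM (10.8 ± 6.87). Of neighbours in this order, APOB (50.2 to 83.7 CPM) and ALB (1.32 to 31.1 CPM) had ranges over libraries that were apart. All other neighbours overlapped, so their order is not separated beyond the spread; APOC3 (223 to 417 CPM) and AGT (171 to 226 CPM) did so by a narrow margin. The 10 genes together made 1481, 1430 and 865 CPM of glucagon cells, against 998, 466 and 709 CPM of TPH1 cells.

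Cells that should lack these products gave the background. Collagen cells (at least 10 UMIs of COL1A1, COL1A2 and COL3A1; 9, 11 and 97 cells) held 26.1 ± 17.7 CPM of the 10 genes together, and FABP7 cells (at least 3 UMIs of this glial and neural progenitor gene; 19, 2 and 41 cells) held 28.0 ± 27.7 CPM. Both sets were also limited to cells with GCG under 5%, under 3 TPH1 UMIs and under 2 ALB UMIs. ALB, APOA2 and APOB had 0 UMIs in both sets, which over all libraries allows up to 2.06 and 3.12 CPM for counting error alone. For ALB the choice of cells kept the level low in advance, so its 0 is not a free measure of background. APOM was at 7.41 ± 2.52 CPM in collagen cells and 11.1 ± 9.62 CPM in FABP7 cells, so its level in glucagon cells was not above theirs. Barcodes under the gene minimum carried 199, 177 and 97.2 CPM of the 10 genes and GCG at 15437, 17718 and 6246 CPM.

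APOC3, APOH and AGT were found in most glucagon cells, while AFP was found in a minority. To set cells of unequal depth side by side, each cell with at least 5000 UMIs was thinned to 5000; 816, 775 and 861 glucagon cells remained. At least 1 UMI of APOC3 was then present in 58.2 ± 11.2% of glucagon cells, of APOH in 51.5 ± 1.45% and of AGT in 50.6 ± 4.53%, with 75.7%, 78.0% and 73.8% before thinning. AFP was detected in 22.7%, 26.6% and 4.41% of thinned glucagon cells, and replicate 3 was again the low one. In collagen cells the thinned shares were 0% for APOC3, 1.12 ± 1.95% for APOH, 6.81 ± 9.91% for AGT and 0.75 ± 1.3% for AFP. A thinned glucagon cell had UMIs of a median of 3, 3 and 2 of the 10 genes, and 4.29%, 5.42% and 9.29% of cells had none. VTN was detected in 39.6 ± 19.3% of thinned glucagon cells and 64.5 ± 8.83% of thinned TPH1 cells. Median depths before thinning were 16492, 21810 and 10499 UMIs in glucagon cells and 11190, 13903 and 8067 UMIs in TPH1 cells.

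The fit across all genes used counts summed per library and cell set, edgeR's quasi-likelihood test with TMM scaling and the library as block, and Benjamini-Hochberg adjustment. It asked which genes differ between glucagon cells and TPH1 cells. Of 12837 genes tested, 7.66% were called higher in glucagon cells, 6.48% lower and 14.1% in either direction at an adjusted p under 0.05. All 10 genes passed the filter on low counts; 8 rose and 1 fell, with a median log2 fold change of 1.90 beside 0.02 over all genes tested. Because the 10 were picked for their levels in glucagon cells, nothing is read from the excess of that count over 7.66%. The 8 include APOA2 and APOM, which had at most 3 UMIs in the TPH1 cells of any library. Without replicate 3, 534 genes were called lower in place of 832. Before TMM scaling the median gene stood 0.50 lower on the log2 scale in glucagon cells, and fold changes are relative to that shift.

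AFP had the largest log2 fold change of the 10, 3.74 ± 0.29 (SE; edgeR adjusted p = 1.0e-07, higher in 3 of 3 libraries). AGT followed at 2.99 ± 0.28 and APOH at 2.55 ± 0.18, both higher in 3 of 3 libraries. Among the lipoprotein genes, APOC3 rose by 2.15 ± 0.21, APOA2 by 2.07 ± 0.56, APOM by 1.73 ± 0.55, APOB by 1.66 ± 0.26 and APOA1 by 0.96 ± 0.27, with edgeR adjusted p of 1.41e-06, 0.0173, 0.0442, 2.2e-04 and 0.0208. APOA1 was higher in 2 of 3 libraries. The APOM call was lost without replicate 1 or replicate 2, and the APOA2 call without replicate 1. In TPH1 cells APOA2 had 2, 0 and 3 UMIs and APOM 2, 1 and 2, so their entry into the fit relied on glucagon cells. As given above, the APOA2 ranges were not apart beyond counting error and the APOM ranges overlapped. VTN fell by 1.00 ± 0.23 on the log2 scale in glucagon cells (edgeR adjusted p = 0.00497, lower in 3 of 3 libraries), and without replicate 3 its change was -0.43 with an adjusted p of 0.0908. ALB was not called (-1.58 ± 0.81, edgeR adjusted p = 0.249), but its call and sign turned on single libraries and cells. By edgeR it was lower without replicate 1 (-3.60, adjusted p = 5.67e-06), without replicate 2 (-1.64, adjusted p = 1.44e-08) and without the glucagon cell of 441 ALB UMIs (-2.86, adjusted p = 0.00748). It was higher, at 4.16 (adjusted p = 2.41e-04), without replicate 3, whose TPH1 cells held the 65 ALB UMIs described above. The number of genes of the 10 called higher was 4 with DESeq2's Wald test and 5 without the library block, with AFP, APOB, APOC3 and APOH among both sets.

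Related gene lists split in the same comparison. Of 31 further hepatic plasma protein genes 11 were tested, and 5 rose in glucagon cells and 0 fell (median log2 fold change 0.91). Of the 5 other apolipoprotein genes tested 2 rose and 0 fell, and of 12 genes of lipoprotein assembly and lipid droplets 4 rose and 1 fell. Of 22 hepatic and endodermal transcription factors tested 2 rose and 8 fell, with a median of -0.39. Of 16 genes of the unfolded protein response 8 rose and 0 fell, and of 19 genes of the secretory pathway and signal peptide handling 8 rose and 1 fell. The lists are described by counts alone, and a gene could pass the filter on low counts through 1 cell set alone. A pair of abundant carrier proteins, named after their values were seen, went opposite ways: GC, the vitamin D binding protein of the albumin cluster, stood at 896, 577 and 569 CPM in glucagon cells and 2282, 1580 and 1919 CPM in TPH1 cells. TTR, transthyretin, stood at 74756, 72914 and 74783 CPM in glucagon cells and 17815, 7922 and 14833 CPM in TPH1 cells.

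Glucagon cells held 1481, 1430 and 865 CPM of the 10 genes together and ALB cells 5155, 3676 and 4468 CPM, more in every library. ALB itself, which chose the ALB cells, made 2553, 1246 and 2968 CPM of theirs. Of the other 9 genes, AGT stood at 205 ± 29.9 CPM in glucagon cells and 185 ± 26.6 CPM in ALB cells, and APOC3 at 335 ± 100 CPM in glucagon cells and 397 ± 113 CPM in ALB cells. Their ranges overlapped. VTN stood at 161 ± 95.9 CPM in glucagon cells and 676 ± 248 CPM in ALB cells and APOA1 at 157 ± 67.4 CPM in glucagon cells and 331 ± 127 CPM in ALB cells, with no overlap for either. APOH went the other way, at 171 ± 18.7 CPM in glucagon cells and 110 ± 13.3 CPM in ALB cells, also with no overlap. Its ALB cell values rest on 9, 12 and 18 UMIs. AFP was at 163, 201 and 23.5 CPM in glucagon cells and 566, 93.5 and 98.2 CPM in ALB cells, with overlapping ranges. With 5, 6 and 12 ALB cells no test was run. HP, AHSG, FGA and TF had 0 UMIs in the ALB cells of every library, as they had in TPH1 cells. Other hepatic markers were present. In replicate 1, 9 of the 14 were at 10 CPM or more in ALB cells, 7 in TPH1 cells and 6 in glucagon cells. These ALB, TPH1 and glucagon cells held 83032, 393885 and 15318368 UMIs in all. A single UMI thus passes 10 CPM in the ALB cells, while the other sets need more. The cut is unlike between the sets, so these counts do not rank them. The 14 include ALB, which chose the ALB cells.

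Cells just inside and just outside the 3 cuts are given as a description. Cells with GCG at 5 to 6% of UMIs (34, 40 and 71 cells) held 1728, 1481 and 1017 CPM of the 10 genes, and cells at 4 to 5% (37, 23 and 61 cells) held 2096, 1388 and 1131 CPM. Cells with 3 TPH1 UMIs (2, 1 and 9 cells) held 2603, 1393 and 482 CPM, and cells with 2 (8, 3 and 10 cells) held 1776, 1164 and 1131 CPM. Kept cells with 2 ALB UMIs (3, 3 and 1 cells) held 2118, 2977 and 1771 CPM, and cells with 1 (29, 18 and 14 cells) held 2343, 2245 and 719 CPM. These ALB groups were taken at any GCG share. They include glucagon cells and so do not border the ALB set used elsewhere, which had GCG under 5%. In replicate 3 the TPH1 values were lower inside the cut and the ALB values higher inside it, and most of these edge groups rest on few cells.

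Within glucagon cells the 10 genes were unequally shared out. The 5% of glucagon cells with the most AFP UMIs held 63.1%, 62.2% and 86.1% of all AFP UMIs. For APOH the same share was 18.5%, 18.97% and 23.0%, and for GCG 14.1%, 13.6% and 16.4%. AFP was thus the most uneven of the genes with over 50 CPM, and APOH was close to glucagon itself. APOA1 (36.3 ± 6.69%), VTN (31.1 ± 10.2%), APOB (28.4 ± 5.87%), AGT (26.5 ± 2.51%) and APOC3 (25.2 ± 3.55%) lay between. The 3 genes of low level reached 78.8 ± 18.4% for APOA2, 62.7 ± 32.5% for APOM and 100% for ALB, where fewer cells had a UMI than the 5% hold.

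**Figure D2:**
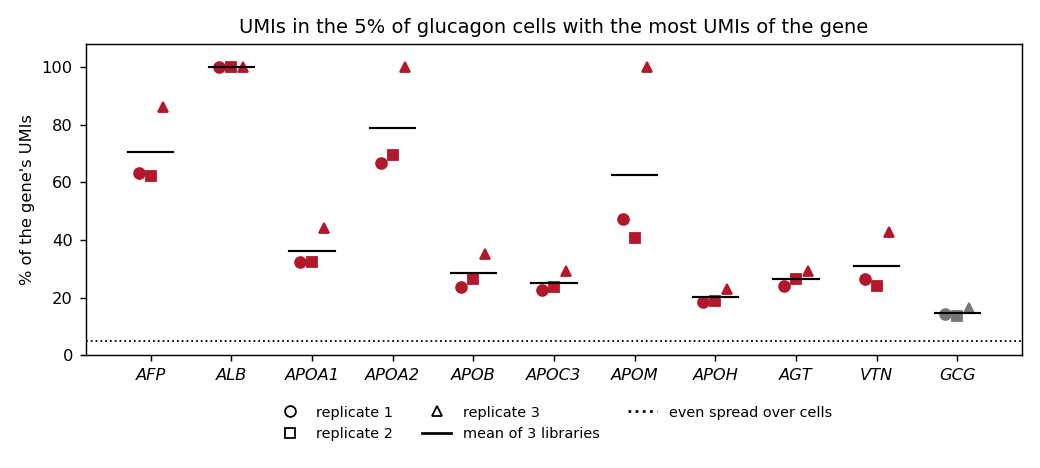
Percent of each gene's UMIs in glucagon cells that lie in the 5% of cells richest in it; points are libraries, bars means of 3, and the dotted line marks an even spread. AFP is at 62.2 to 86.1% and APOH at 18.5 to 23.0%, near GCG.

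At equal depth the variance of AFP was 8.01, 8.74 and 5.30 times its mean. APOA1 reached 3.42, 3.24 and 2.08 and APOC3 3.22, 3.12 and 3.08. The median over 5658, 5596 and 5677 genes with at least 0.1 UMIs per thinned cell was 1.03 in each library, with 95th percentiles of 1.24, 1.27 and 1.26. Among the genes with over 50 CPM, APOH (1.53, 1.29 and 1.52) and APOB (1.55, 1.16 and 1.42) were the least dispersed, and APOB in replicate 2 lay under the 95th percentile.

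Over single cells most pairs of the 10 genes were weakly correlated, and APOA1 with APOC3 the most strongly. Not all lipoprotein genes went together: APOB with APOM was at 0.05, 0.04 and 0.01 in replicates 1, 2 and 3. Over thinned glucagon cells the Pearson correlation of log UMIs had a median over the 45 pairs of 0.10, 0.07 and 0.07 in replicates 1, 2 and 3, beside a median of -0.005 to -0.006 between the 10 and 5651, 5589 and 5671 other genes. The points are cells of 1 library that share depth after thinning, and the counts are sparse. The 10 were chosen for moving together in these data, so the coefficients are given as a description. The strongest pair was APOA1 with APOC3, cluster neighbours, at 0.47, 0.49 and 0.42. AFP with APOA1 followed at 0.35, 0.29 and 0.19, and APOB with APOC3 at 0.27, 0.24 and 0.26. VTN correlated with APOA1 at 0.24, 0.31 and 0.18 and with APOC3 at 0.27, 0.28 and 0.15. The neighbours AFP and ALB were at 0.17, 0.18 and 0.15.

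APOH stood apart from the lipoprotein genes. Its correlation with APOA1 was -0.08, -0.09 and -0.05 and with APOC3 -0.09, -0.02 and -0.05, while with AGT it was 0.08, 0.08 and 0.08. AGT itself had a median correlation with the other 9 of 0.08 in each library. Pairs above 0 numbered 39, 39 and 33 of 45. In TPH1 cells the median over pairs was 0.14 over 31 cells of replicate 1 and 0.00 over 88 cells of replicate 3. TPH1 cells of replicate 2 and the ALB cells of every library were under the minimum of 20 thinned cells, and no correlation was computed for collagen or FABP7 cells. Without the 5% of cells richest in the 10 genes, the mean over libraries of the median was 0.04, against 0.08 with them.

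**Figure D3:**
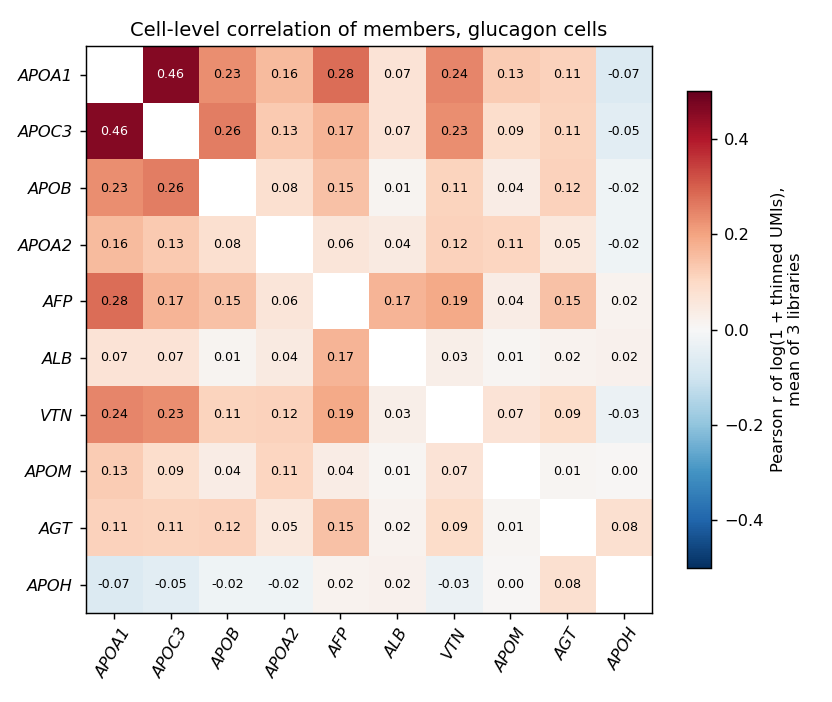
Pearson correlation of log thinned UMIs between each pair of the 10 genes over glucagon cells, as the mean of 3 libraries; red is positive and blue negative. APOA1 and APOC3 form the strongest pair at 0.46, and the APOH row and column stay between -0.07 and 0.08.

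Ranking cells by the other 9 genes gave a like order in levels for most of the 10. They were chosen for moving together in these data, so no test was run. For each gene, glucagon cells were ordered by the share of UMIs from the other 9, and the cells with the highest share were set against as many with the lowest (284, 286 and 304 cells each, 1 in 3). AFP was at 360, 390 and 50.5 CPM in the high cells and 21.7, 28.7 and 3.24 CPM in the low cells, ratios of 16.6, 13.6 and 15.6. APOA1 had ratios of 7.39, 9.92 and 7.91, APOA2 of 11.2, 9.75 and 14.5, and APOC3 of 3.36, 4.43 and 2.80. AFP thus differed between high and low cells by similar factors in all libraries, although its level in replicate 3 was far lower. APOB had ratios of 3.49, 4.83 and 3.18, APOM of 3.86, 3.70 and 2.10, VTN of 2.36, 3.33 and 2.08 and AGT of 1.61, 1.66 and 1.75. For APOH the high cells held 166, 165 and 184 CPM and the low cells 154, 151 and 209 CPM, ratios of 1.08, 1.10 and 0.88. APOA2 rests on 3 UMIs in the low cells of replicate 3, and ALB on 2, 0 and 1 UMIs in the low cells of the 3 libraries, so no ratio is given for ALB.

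**Figure D4:**
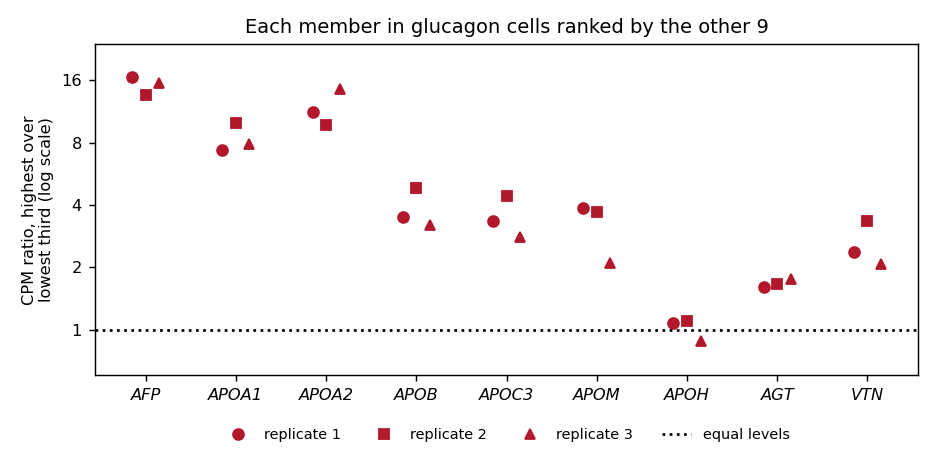
Ratio of CPM (log scale) between the glucagon cells ranked highest and lowest (1 in 3 each) by the other 9 genes, 1 point per library; the dotted line marks equal levels. AFP lies at 13.6 to 16.6 and APOH at 0.88 to 1.10; ALB is not drawn because its low cells held at most 2 UMIs.

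The share of GCG in a cell and that of the 10 genes were weakly related. Across glucagon cells the Spearman correlation of the 10 genes' share with the GCG share was -0.11, 0.00 and -0.06, with the TTR share 0.33, 0.23 and 0.16, with total UMIs 0.13, 0.24 and 0.18 and with the mitochondrial share 0.12, 0.27 and 0.15. Between the glucagon cells with the highest and the lowest GCG share (1 in 3 each), 0.996% of 12244 genes were called higher by edgeR, 0.915% lower and 1.91% in either direction. Of the 10 genes APOM (log2 fold change 0.82 ± 0.15), AFP (0.36 ± 0.06) and APOH (0.34 ± 0.07) rose, and ALB fell by 4.64 on the log2 scale. The ALB value rests on the single cell named above: without it the change was -1.10 with an edgeR adjusted p of 0.379. Median log2 fold change over the 10 was -0.01, beside 0.00 over all genes tested. These are changes relative to the median gene, which was 0.30 lower on the log2 scale in GCG-high cells before TMM scaling; in plain CPM, AFP and APOH were higher in 2 of 3 libraries only. AFP was at 175, 219 and 28.2 CPM in GCG-high cells and 165, 207 and 31.7 CPM in GCG-low cells, a difference within the spread between libraries. The AFP call was lost without replicate 1 (adjusted p = 0.0517), with thinned cells (adjusted p = 0.529) and with a mitochondrial limit of 30% (0.18, adjusted p = 0.163), all by edgeR. Leaving out replicate 2 gave 244 genes higher in place of 122, and leaving out replicate 3 gave 48 higher and 57 lower, in place of 122 and 112. Median depth was 19584, 25231 and 12295 UMIs in GCG-high cells and 14772, 18008 and 9243 UMIs in GCG-low cells, and its part in the result was not tested. Without the library block, none of these genes was called.

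The last comparison asked which other genes differ between glucagon cells rich and poor in the 10. In each library, the 1 in 3 glucagon cells with the highest share of UMIs from the 10 genes were set against the 1 in 3 with the lowest. The 10 chose the cells and were not tested. The filter on low counts keeps a gene with enough counts in either set alone. A gene scarce in 1 set can thus enter only through the set where it is high, so the list counts below are a description. Of 12326 genes, 5.14% were called higher by edgeR in these member-high cells, 3.52% lower and 8.66% in either direction. Median depth was 16569, 23631 and 10950 UMIs in member-high cells and 15531, 18664 and 9674 UMIs in member-low cells, and the median mitochondrial share 15.3%, 16.1% and 15.9% in member-high cells and 14.4%, 13.7% and 14.5% in member-low cells; their part in the result was not tested. With cells thinned to 5000 UMIs, 245 genes were called higher and 101 lower, in place of 633 and 434, of which 228 and 91 were shared. Genes called lower numbered 270 without replicate 1 and 260 without replicate 2.

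Further plasma protein genes rose with the 10. Of the 31 other hepatic secretory genes 10 were tested, and 9 rose and 0 fell (median log2 fold change 0.99, beside 0.00 over all genes tested). SERPINA1, alpha-1 antitrypsin, averaged 4004 ± 545 CPM in member-high cells and 2409 ± 216 CPM in member-low cells (log2 fold change 0.79 ± 0.04, edgeR adjusted p = 4.83e-11). SERPIND1, heparin cofactor II, averaged 36.0 ± 3.08 CPM in member-high cells and 12.3 ± 2.67 CPM in member-low cells. RBP4 (1.70 ± 0.25), ITIH1 (1.44 ± 0.17) and HPX (1.29 ± 0.27), genes for retinol transport, hyaluronan binding and haem binding, rose as well. GC, at 1104, 680 and 591 CPM in member-high cells and 681, 431 and 557 CPM in member-low cells, rose by 0.55 ± 0.07. Of the other apolipoproteins, APOC1 rose by 0.80 ± 0.07, CLU (clusterin) by 0.60 ± 0.06 and APOE by 0.48 ± 0.06, and 2 of 5 tested were not called.

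Of 13 genes of lipoprotein assembly and lipid droplets tested, 6 rose and 0 fell, beside 5.14% of all genes called higher. FABP1, the liver and gut fatty acid binding protein, averaged 13.0 ± 7.98 CPM in member-high cells and 0.87 ± 0.51 CPM in member-low cells (log2 fold change 3.91 ± 0.28). It held 107, 98 and 16 UMIs in member-high cells and 6, 5 and 1 in member-low cells. CIDEB, a lipid droplet protein needed for loading lipoproteins with lipid in mouse liver, averaged 32.9 ± 10.6 CPM in member-high cells and 9.96 ± 1.24 CPM in member-low cells (1.86 ± 0.15). PLIN2, the lipid droplet coat protein, averaged 260 ± 13.9 CPM in member-high cells and 145 ± 6.97 CPM in member-low cells (0.90 ± 0.05), and DGAT1, which makes triglyceride, rose by 0.63 ± 0.10. The ranges of these 4 did not overlap. They were named as the called genes of the list with the largest changes, so this is a description only. The share of all tested genes without overlap was not computed. Of 16 genes of cholesterol synthesis and uptake 3 rose and 0 fell, among them HMGCS1 (0.41 ± 0.05) and SQLE (0.20 ± 0.05).

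Hepatocyte and gut markers were among the largest changes, at low levels. Of 6 genes of hepatocyte metabolism and surface tested 4 rose and 0 fell. ASGR1 and ASGR2, the subunits of the asialoglycoprotein receptor, averaged 21.6 ± 3.4 and 7.77 ± 5.02 CPM in member-high cells, against 9.95 ± 1.8 and 0.56 ± 0.55 CPM in member-low cells. ASGR2 rests on 66, 57 and 9 UMIs in member-high cells and 5, 3 and 0 in member-low cells. GLUL, glutamine synthetase, rose by 0.46 ± 0.05. From the enterocyte list 2 of 14 genes were tested and both rose, TM4SF5 by 2.10 ± 0.11 (89.4 ± 10.7 CPM in member-high cells and 22.4 ± 5.02 CPM in member-low cells) and VIL1, villin, by 0.44 ± 0.05. The enterocyte genes FABP2, RBP2 and SI had 0 UMIs in member-high and member-low cells of every library, and the summed enterocyte markers ranged from 208 to 260 CPM in member-high cells and from 159 to 197 CPM in member-low cells. The 11 hepatic markers outside the 10 genes (TTR and SERPINA1 the most abundant) summed to 80562 to 85338 CPM in member-high cells and 69203 to 70941 CPM in member-low cells, with HP at 0 in member-high cells and AHSG at 0 in member-low cells. Their part in the result was not tested. Of the fetal list, SPINK1, a trypsin inhibitor, rose by 0.82 ± 0.07, DLK1 by 0.47 ± 0.13 (higher in 2 of 3 libraries) and TTR by 0.27 ± 0.03, and PEG10 fell by 0.37 on the log2 scale.

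Of 21 hepatic and endodermal transcription factors tested 5 rose and 1 fell, by small amounts. HNF4A, a nuclear receptor of liver, gut and islet, averaged 32.5 ± 1.99 CPM in member-high cells and 23.2 ± 0.34 CPM in member-low cells (log2 fold change 0.56 ± 0.10, edgeR adjusted p = 9.06e-04). CEBPA rose by 0.59 ± 0.12, ONECUT2 by 0.53 ± 0.08, and NR0B2, the nuclear receptor SHP, by 0.45 ± 0.11. FOXA2 was the one that fell, by 0.33 on the log2 scale. HNF4A, CEBPA, ONECUT2 and NR0B2 were not called with cells thinned to 5000 UMIs.

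Several endocrine genes fell. From the hormone list 3 of 6 tested fell and 0 rose: IAPP, NPY and SST. SST averaged 1017 ± 606 CPM in member-high cells and 2599 ± 820 CPM in member-low cells, with no overlap (log2 fold change -1.40 ± 0.11, edgeR adjusted p = 6.88e-09). IAPP, islet amyloid polypeptide, had 4.17, 6.96 and 1.12 CPM in member-high cells and 163, 12.8 and 4.86 CPM in member-low cells, so that replicate 1 gave most of its change: the log2 fold change was -3.59, and -0.97 without replicate 1 (edgeR adjusted p = 0.0301). IAPP was not called with DESeq2's Wald test (-2.62, adjusted p = 0.445) or without the library block (-3.70, edgeR adjusted p = 0.149), and without that block SST was not called either (-1.29, edgeR adjusted p = 0.114). NPY averaged 1.53 ± 0.81 CPM in member-high cells and 7.497 ± 4.28 CPM in member-low cells. INS (-0.51) and GCG (-0.07) were not called. Of 14 secretory granule genes 6 fell and 1 rose; SLC30A8, the granule zinc transporter, averaged 45.9 ± 4.79 CPM in member-high cells and 113 ± 15.7 CPM in member-low cells (-1.24 ± 0.07). VGF (-0.95 ± 0.10), SYT13 (-0.68 ± 0.15) and SCG2 (-0.44 ± 0.05) fell as well, and CHGA, chromogranin A, was the gene that rose. The alpha cell list split, with 6 of 18 higher and 3 lower: LOXL4 (-1.01 ± 0.08) and PCSK2 (-0.80 ± 0.08), the glucagon-processing protease, fell, and SMIM24 (0.99 ± 0.08) and TM4SF4 (0.86 ± 0.08) rose. The 4 delta cell markers, RBP4 among them, summed to 634 to 1732 CPM in member-high cells and 1845 to 3476 CPM in member-low cells, and the 5 beta cell markers to 543 to 1727 CPM in member-high cells and 367 to 3679 CPM in member-low cells; their part in the result was not tested.

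Of 19 genes of the secretory pathway and signal peptide handling 4 rose, 0 fell and 15 were not called, with a median log2 fold change of 0.07. The 4 were SEC11C (0.39 ± 0.05), a signal peptidase subunit, KDELR2 (0.25 ± 0.06), SEC61B (0.18 ± 0.05) and SSR4 (0.16 ± 0.04). Of 16 genes of the unfolded protein response 8 rose and 0 fell, with PDIA6 (0.34 ± 0.05), HSPA5 (0.32 ± 0.05), DDIT3 (0.31 ± 0.09) and PDIA3 (0.29 ± 0.05) the largest, each with ranges that overlapped between member-high and member-low libraries. Of 14 immediate early and heat shock genes only JUND rose (0.20 ± 0.05) and 0 fell. Among the partners of AGT and VTN, CTSD, a protease that can cleave AGT, rose by 0.35 ± 0.05 and ITGB5, a subunit of a vitronectin receptor, by 0.31 ± 0.09; ACE and ITGAV were not called, and renin was not tested.

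**Figure D5:**
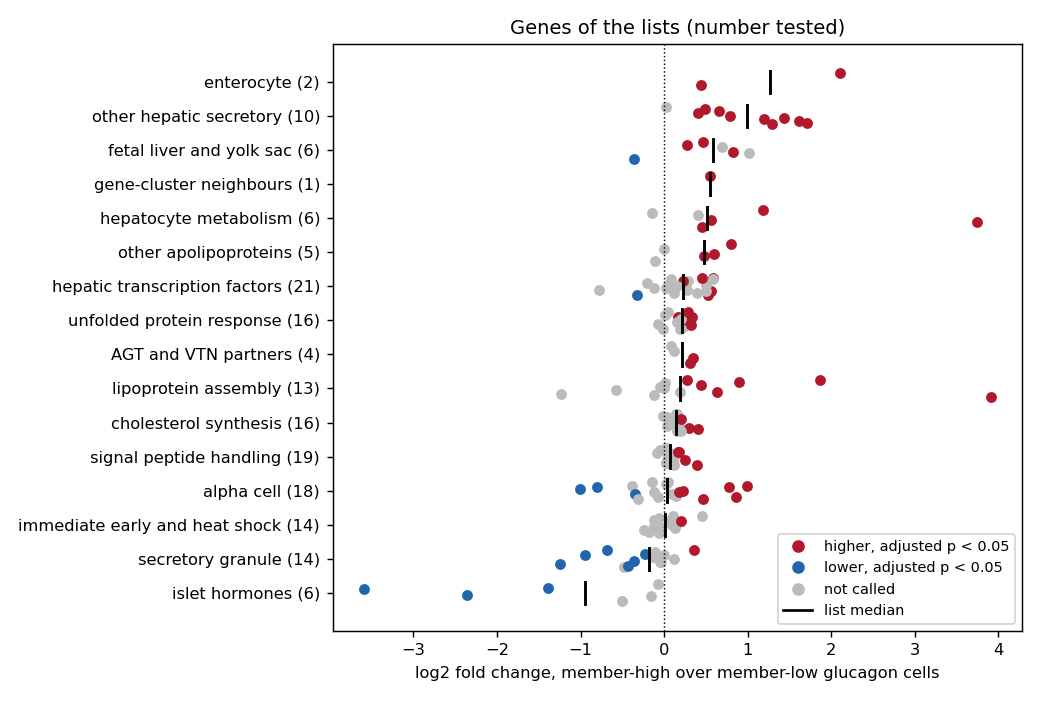
Log2 fold change, member-high over member-low glucagon cells, of every tested gene of each list (number tested in brackets); red and blue points are called higher and lower, grey ones are not called, and black bars are list medians. Hepatic secretory genes lie right of 0 with a median of 0.99, and the islet hormones lie left with a median of -0.95.

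Outside the lists, the genes with at least 50 CPM that rose most were AMN (1.41 ± 0.08), FXYD3 (1.01 ± 0.07), MGST1 (0.85 ± 0.12), SCT (0.85 ± 0.06), AQP3 (0.83 ± 0.08), SLC2A1 (0.83 ± 0.07), CALY (0.78 ± 0.09) and ID3 (0.78 ± 0.08). AMN, amnionless, is an endocytic receptor subunit of gut and kidney; it averaged 110 ± 25.2 CPM in member-high cells and 43.8 ± 6.72 CPM in member-low cells. SCT encodes the gut hormone secretin, and it averaged 125 ± 18.6 CPM in member-high cells and 71.7 ± 10.98 CPM in member-low cells. Those that fell most were UCN3 (-0.99 ± 0.08), SAMD5 (-0.85 ± 0.07), CRH (-0.70 ± 0.09), TMEM132B (-0.63 ± 0.08), C1QL1 (-0.56 ± 0.08), EEF1A2 (-0.55 ± 0.06), SMIM32 (-0.53 ± 0.09) and CEP126 (-0.52 ± 0.07). UCN3 and CRH encode peptides of the corticotropin-releasing factor family, and CRH averaged 114 ± 31.4 CPM in member-high cells and 191 ± 48.2 CPM in member-low cells.

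By likeness across cells, the genes most like the sum of the 10 were SERPINA1, SPINK1, FTL, CLU, TM4SF5, SERPINI1, MT-CYB and MT-CO3. They were ranked, among 5140 genes, by the lowest of the 3 per-library Pearson correlations over thinned glucagon cells, which was 0.34 for SERPINA1, 0.33 for SPINK1, 0.25 for FTL (ferritin light chain), 0.21 for CLU, 0.20 for TM4SF5, 0.19 for SERPINI1 (neuroserpin) and 0.18 for both mitochondrial genes. For the gene last in that order, GNAS, the 3 values were -0.26, -0.34 and -0.11, and for SLC30A8 they were -0.22, -0.23 and -0.16.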

How the data were processed

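Single-cell suspensions of SC-A clusters were run on the 10x Genomics platform with version 3 of its 3′ chemistry, per the labels' protocols. The deposited values are whole-number UMI counts per gene and barcode, and the authors used Cell Ranger 4.0.0 with GRCh38, per the submitters' processing notes; how barcodes were selected is not given in the sources used here. Deposited barcodes had at least 500, 503 and 501 UMIs. From these counts, cells were filtered and classed by the cuts given above, and counts were summed per library and cell set. Each comparison set 3 sums against 3 from the same libraries, so the library was a block. The fits used edgeR 4.0.16 (quasi-likelihood test, TMM, filterByExpr) in R 4.3.3, with DESeq2 1.42.0 as an alternative; adjusted p-values are Benjamini-Hochberg over all genes tested, with 0.05 as the threshold. The genes that chose the cells were not tested. Doublets were kept, because the rule for the cells gives none; Scrublet (scanpy 1.11.5) called 18, 11 and 18 of the kept cells, and an alternative leaves them out. The fits and the thinning were tested on simulated data.

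The 10 genes, the gene lists and the tests were chosen with earlier results of these data known. Genes named in the text were all 10; up to 4 called genes per list with the largest log2 fold change between member-high and member-low cells; outside the lists, the 8 strongest each way with a mean of 50 CPM or more, a log2 fold change of at least 0.5 and 1 sign in 3 libraries; and the 8 most alike in cell-level correlation. Gene positions are from GENCODE 29, which held 33456 of the 33538 features by identifier. Total counts per library are given above; intervals and floors (3 counts) cover counting error only. Some genes that the rule would name are not reported here. The comparison of glucagon with ALB cells was not run, because 2 libraries held under 10 ALB cells.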

Additional observations from a re-analysis of the deposited data

Results flagged for a closer look

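The 10 genes were also present in barcodes that the filters left out. Barcodes with at least 1000 genes, GCG at 5% or more of UMIs and over 20% mitochondrial UMIs numbered 287, 184 and 427 in replicates 1, 2 and 3, and they held 1386, 1483 and 1114 CPM of the 10 genes, far above the limit that a count of 0 allows. In kept glucagon cells the same sums were 1481, 1430 and 865 CPM. AFP was at 118, 162 and 59.4 CPM in the barcodes left out, against 163, 201 and 23.5 CPM in kept glucagon cells, and APOH at 113, 140 and 128 CPM in the barcodes left out, against 162, 160 and 193 CPM in kept glucagon cells.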

How the results depend on the processing

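Alternatives were set up together with the tests, except leaving out the glucagon cell with the most ALB UMIs, which was chosen after seeing the data. Of 138 main counts and levels recomputed, 94 stayed close and 44 moved; of 1391 values of single genes, 144 lost their call, 12 gained one and 1 reversed. The comparison of glucagon with ALB cells and its alternatives were not run, because 2 libraries held under 10 ALB cells. Between glucagon and TPH1 cells, DESeq2's Wald test called 530 genes higher and 4 of the 10 higher, and a 30% mitochondrial limit called 1297 genes lower. Without the replicate block 5 of the 10 were higher and 0 lower, VTN at -0.76 with an adjusted p of 0.245 (edgeR). With no filter on low counts, or without that ALB cell, 2 of the 10 were lower. Leaving out 1 replicate gave 667 to 1185 genes higher, 534 to 1030 lower, 6 to 9 of the 10 higher and 0 to 2 lower; ALB (-1.58) was -3.60 without replicate 1 and reversed to 4.16 without replicate 3. Between GCG-high and GCG-low cells, DESeq2 called 74 higher and 19 lower (0 of the 10 lower), no filter 212 and 178 (3 lower), a 30% limit 233 and 185 (3 lower), and the fit without the replicate block 0 and 0 (0 of the 10 either way). Thinning gave 41 genes lower, 1 of the 10 higher and 0 lower; leaving out doublets gave 2 of the 10 lower, and without that ALB cell it was 0. Leaving out 1 replicate gave 48 to 244 genes higher, 57 to 152 lower, 2 to 3 of the 10 higher and 1 to 3 lower. Between member-high and member-low cells, DESeq2 called 155 higher and 56 lower, the fit without the replicate block 79 and 37, and thinning 245 and 101; leaving out 1 replicate gave 424 to 650 and 260 to 507. The share of calls that were higher was 70.8% with thinning and 73.5% with DESeq2, beside 59.3%. The median correlation was 0.148 unthinned and 0.0439 without the 5% of cells richest in the 10; without 1 replicate it was 0.0690 to 0.0852. The cause of these moves was not tested. Depth limits APOA2, APOM and ALB, with at most 536 UMIs each over 2628 cells.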

Other observations

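Some gut and liver genes, named after their values were seen, differed between member-high and member-low glucagon cells at low levels. PKLR, the liver and red cell pyruvate kinase, averaged 13.0 ± 3.56 CPM in member-high cells and 2.15 ± 0.56 CPM in member-low cells (SD, n = 3 libraries), and UGT2A3, a glucuronosyltransferase, 18.2 ± 4.03 CPM in member-high cells and 2.96 ± 1.46 CPM in member-low cells. MYO1A, a brush border myosin, averaged 16.02 ± 6.21 CPM in member-high cells and 4.397 ± 1.80 CPM in member-low cells. On the lower side, DCLK1, a microtubule-associated kinase, averaged 3.28 ± 2.35 CPM in member-high cells and 24.4 ± 5.53 CPM in member-low cells. PKLR rests on 12, 8 and 7 UMIs in member-low cells, and DCLK1 on 14, 9 and 21 UMIs in member-high cells. These 4 genes were named with their values known. That their ranges did not overlap and that all 4 were called by edgeR, beside 8.66% of all genes tested, is thus a description and no support.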
